A study of Homo sapiens with 8 samples.

Results

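The 29 genes described here make cholesterol and fatty acids or control that synthesis. They were picked by name from the 43317 genes on the array, and every one of the 29 was found. The sterol arm holds 15 enzymes (HMGCS1, MVK, PMVK, MVD, IDI1, FDPS, FDFT1, SQLE, LSS, CYP51A1, TM7SF2, NSDHL, HSD17B7, EBP and DHCR7). The fatty acid arm holds 9 genes (ACLY, ACSS2, ACACA, FASN, ELOVL6, SCD, FADS1, FADS2 and LPIN1). The last 5 are regulators and a transport protein (SREBF1, SREBF2, SCAP, INSIG1 and STARD4). Human cancer cell lines were transfected with a miRNA or an siRNA, and their RNA, labelled with Cy5, was hybridised to an Agilent array together with Cy3-labelled RNA of mock cells of the same line. PC3 cells, a prostate cancer line, received miR-150-5p, miR-150-3p, miR-99a-3p or miR-100-3p. FaDu cells, from a squamous carcinoma of the hypopharynx, received either strand of miR-99a (5p or 3p). PANC-1 cells, from a pancreatic carcinoma, received si-FOXQ1-1 or si-FOXQ1-2. Each condition had 1 array, 8 in all on 1 slide, so no test was possible and each ratio describes 1 pair of RNAs. The sample labels describe the mock cells as not transfected, so the effect of the transfection itself and that of the transfected RNA cannot be told apart. Cy5 marked the transfected cells on every array, so an effect of the dyes cannot be told apart from them either.

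Cholesterol is built from acetyl-CoA through mevalonate, isoprenoids, squalene and lanosterol, and fatty acids are built from the same acetyl-CoA through malonyl-CoA. Both arms are switched on by the transcription factors SREBP-2 and SREBP-1, encoded by SREBF2 and SREBF1. SCAP carries the precursors of these factors out of the endoplasmic reticulum when sterols are low, and INSIG1 holds them back when sterols are high. INSIG1 is itself a target of the SREBPs. Many carcinomas use this synthesis to supply their membranes.

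The mature sequences of the transfected miR-99a and miR-100 strands, taken from RefSeq (GRCh38.p14), are shown because 2 of them have nearly the same seed and were given to the same cell line. Capitals mark the seed, bases 2 to 8.
miR-99a-5p: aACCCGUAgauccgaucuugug
miR-99a-3p: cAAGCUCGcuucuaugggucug
miR-100-3p: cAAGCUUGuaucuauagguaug
Both miR-99a strands lie on the plus strand of chromosome 21 (chr21:16539101-16539122 and chr21:16539138-16539159), and miR-100-3p lies on the minus strand of chromosome 11 (chr11:122152240-122152261). The miR-99a-3p and miR-100-3p strands share 17 of 22 bases and 6 of 7 seed bases. Their seeds differ by U7C, with the base of miR-100-3p first and positions counted from 1 at the 5′ end. The 5p and 3p strands of miR-99a share 2 of 7 seed bases.

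Between 19184 and 20919 genes per array were well above background in at least 1 channel, no gene spot was saturated, and the spike-in controls had a slope of 0.882 to 0.900, so ratios are somewhat compressed. FOXQ1, the siRNA target, had log2 ratios of −2.16 and −2.12 in PANC-1 cells with the first and the second siRNA. Of 6 squamous markers (KRT5, KRT14, KRT6A, TP63, DSG3 and SERPINB5), 6 were above background in FaDu mock cells, 1 in every PC3 mock channel (SERPINB5) and 0 in PANC-1. KLK3, a defining prostate marker, was not well above background in any line, PC3 included.

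All 29 genes were well above background in at least 1 channel on every array, and 28 of them in both channels on all 8. ELOVL6 was the exception, with Cy5 not well above background in PANC-1 cells with si-FOXQ1-2. The scanner software's error of a log2 ratio, called the spot error below, had a median between 0.205 and 0.210 over the genes of each array. The largest spot error was 0.38, for ELOVL6 in PANC-1 cells. The spot error is a technical error of 1 spot and leaves out the difference between cultures. It is larger than the spread measured between repeated spots. On each array 300 probes with repeated spots had a median SD between 0.0506 and 0.0672.

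Of the 232 log2 ratios of these genes, 8 lay at or past 1 in size, which is 2-fold, and they belonged to 6 genes. INSIG1 passed on 3 arrays, and HMGCS1, FASN, ELOVL6, ACSS2 and STARD4 on 1 array each. The other 23 genes stayed within 2-fold on all 8 arrays. Of the 8 ratios, 5 were from FaDu cells with miR-99a-3p, 2 from PC3 cells with miR-150-3p and 1 from PC3 cells with miR-99a-3p.

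**Figure D1:**
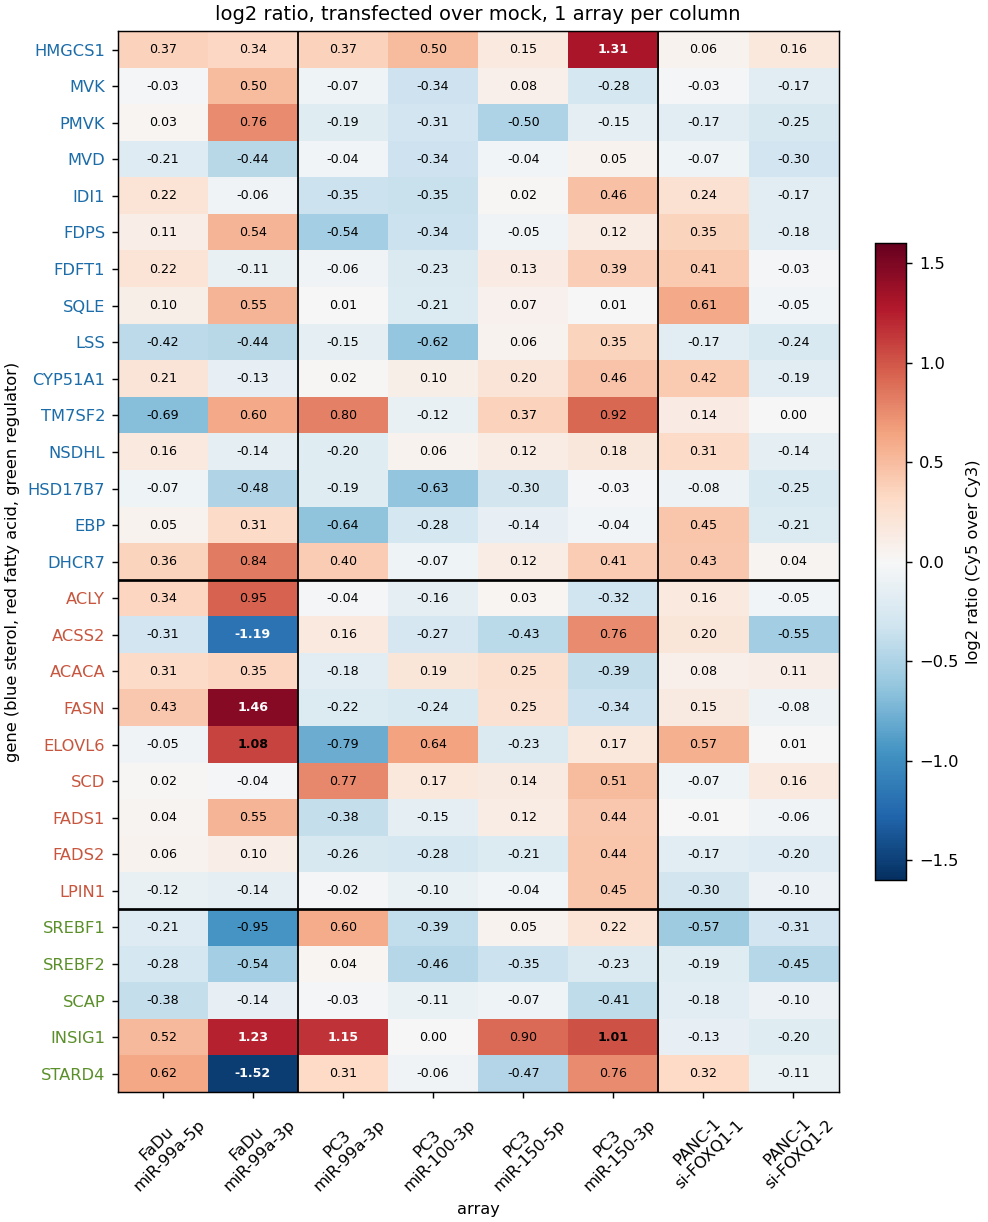
Heat map of the log2 ratio of transfected over mock cells for the 29 genes (rows, grouped into sterol enzymes, fatty acid genes and regulators) on the 8 arrays (columns, 1 array each). Red is higher and blue lower in transfected cells, bold numbers are at or past 2-fold, and 5 of the 8 bold values are in the column of FaDu cells with miR-99a-3p.

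The array with the most values past 2-fold was FaDu with miR-99a-3p, where FASN, INSIG1 and ELOVL6 were higher and STARD4 and ACSS2 lower. These are 5 of 29 genes, beside 17.6% of all genes above background on that array and 13.2% of those above background in both channels. The 3 higher ones stand beside 8.25% of all genes and the 2 lower ones beside 9.37%. By the smaller measure of 2 spot errors, 18 of the 29 differed from 0, 11 higher and 7 lower, beside 44.1% of all genes, 22.1% in each direction. In PC3 cells with miR-150-3p, HMGCS1 and INSIG1 were past 2-fold, 2 of 29 genes beside 9.36% of all genes and 4.91% of those measured in both channels. Both were higher, as were 2.69% of all genes, while 6.68% were lower. On that array 11 of the 29 were higher and 0 lower by 2 spot errors, while 13.1% of all genes were higher and 15.2% lower, 28.4% in all.

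In PC3 cells with miR-99a-3p, INSIG1 alone was past 2-fold, 1 of 29 genes beside 11.6% of all genes and 8.18% of those measured in both channels. Of all genes, 4.23% were higher and 7.39% lower by 2-fold. By 2 spot errors 4 of the 29 were higher and 3 lower, beside 17.3% and 17.5% of all genes, 34.7% together. On the other 5 arrays 0 of the 29 passed 2-fold. The share of all genes that did was 5.72% in FaDu cells with miR-99a-5p, 5.16% in PC3 cells with miR-150-5p, 4.33% in PC3 cells with miR-100-3p, 4.21% in PANC-1 cells with si-FOXQ1-1 and 3.7% with si-FOXQ1-2. Among genes measured in both channels these shares were 1.06%, 1.41%, 1.28%, 1.25% and 0.718%. By 2 spot errors 5, 4, 5, 5 and 2 of the 29 differed from 0 on these arrays, beside 13.8%, 15.2%, 14.3%, 13% and 9.75% of all genes.

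INSIG1, the protein that retains SREBPs in the endoplasmic reticulum, was higher with 4 of the 5 miRNAs by more than 2 spot errors. On its probe (chr7:155101843-155101902, hg19), the signal went from 271 in mock to 636 in transfected FaDu cells with miR-99a-3p. In PC3 cells it went from 2745 to 6107 with miR-99a-3p, from 2011 to 4057 with miR-150-3p and from 1528 to 2857 with miR-150-5p. These are log2 ratios of 1.23 (spot error 0.24), 1.15 (0.23), 1.01 (0.22) and 0.90 (0.22). FaDu cells with miR-99a-5p followed at 0.52, from 159 to 228. The signals with miR-100-3p, 1697 and 1694, hardly differed, and both siRNAs gave ratios slightly below 0, −0.13 and −0.20. INSIG1 was thus higher by more than 2 spot errors on 5 arrays, and on none of the others was it lower by as much. With limma's background correction and loess, the ratio was just under 1 in FaDu cells with miR-99a-3p (0.999) and 0.94 with miR-150-3p. The miR-150-3p ratio was also under 2-fold when the mean of all PC3 mock channels was the control (0.88).

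SREBF1 encodes SREBP-1, which acts mainly on fatty acid genes, and its ratios ranged over 1.55 log2 units between arrays. Its signal went from 26011 in mock to 13494 in FaDu cells with miR-99a-3p, a log2 ratio of −0.95 (spot error 0.22). The PC3 array with miR-99a-3p went the other way. Here the signal was 13178 in mock and 19971 in transfected cells, a log2 ratio of 0.60 (spot error 0.21). The same miRNA therefore stood beside opposite directions of SREBF1 in the 2 lines. Both siRNAs gave lower values in PANC-1 cells, −0.57 and −0.31, and miR-100-3p gave −0.39 in PC3 cells. The remaining log2 ratios were −0.21, 0.22 and 0.05. A second, dimmer SREBF1 probe, above background in both channels, gave −1.23 in FaDu and 0.07 in PC3 cells with miR-99a-3p, and 0.16 with miR-100-3p. The higher value in PC3 cells with miR-99a-3p was therefore seen on 1 of the 2 probes, and their mean was 0.33.

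SREBF2 encodes SREBP-2, which acts mainly on sterol genes, and was below mock on 7 of 8 arrays. The lowest log2 ratio was −0.54 in FaDu cells with miR-99a-3p, from 3069 in mock to 2107 in transfected cells, and the highest was 0.04 in PC3 cells with miR-99a-3p. It was lower by more than 2 spot errors on 3 arrays, those of FaDu with miR-99a-3p, PC3 with miR-100-3p (−0.46) and PANC-1 with si-FOXQ1-2 (−0.45). SCAP, the SREBP escort protein, was below 0 on all 8 arrays, between −0.41 and −0.03, and on none by 2 spot errors. Ratios of 1 sign on every array share the dye orientation, whose part was not tested.

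STARD4 carries cholesterol between membranes inside the cell and had the widest spread of the 29, 2.28 log2 units. Its probe (chr5:110834688-110834747, hg19) had signals of 766 in mock and 266 in FaDu cells with miR-99a-3p, a log2 ratio of −1.52 (spot error 0.25), or 2.88-fold lower. The other strand, miR-99a-5p, left FaDu cells with a higher signal than mock, 705 against 457, a log2 ratio of 0.62. Of the PC3 arrays, STARD4 was highest with miR-150-3p (0.76, from 397 to 672) and lowest with miR-150-5p (−0.47, from 307 to 222). With miR-99a-3p in PC3 cells it was 0.31, with miR-100-3p −0.06, and with the siRNAs 0.32 and −0.11. Each pair of strands of 1 miRNA given to 1 line thus had STARD4 on opposite sides of mock.

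The sterol enzymes mostly stayed close to mock. HMGCS1, which makes HMG-CoA at the head of the pathway, was the only sterol enzyme past 2-fold on any array and the only member above mock on all 8. Its probe (chr5:43290117-43290176, hg19) went from 599 in mock to 1484 in PC3 cells with miR-150-3p, a log2 ratio of 1.31 (spot error 0.24). The next values were 0.50 in PC3 cells with miR-100-3p (from 422 to 597), 0.37 in PC3 cells with miR-99a-3p (661 to 857) and 0.37 in FaDu cells with miR-99a-5p (325 to 420). FaDu cells with miR-99a-3p gave 0.34 (614 to 775), PC3 cells with miR-150-5p 0.15 (477 to 530), and the siRNAs 0.06 (372 to 387) and 0.16 (379 to 425). Only the first 2 of these 8 ratios exceeded 2 spot errors, so the single sign on all arrays is made mostly of values within 2 spot errors.

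TM7SF2, a sterol reductase acting after lanosterol, had the widest spread of the sterol enzymes. It was 0.92 in PC3 cells with miR-150-3p, 0.80 in PC3 cells with miR-99a-3p and 0.60 in FaDu cells with miR-99a-3p, and −0.69 in FaDu cells with miR-99a-5p. The FaDu signals of this probe were low, from 65.7 to 226, against 1431 to 4641 in PC3. Against the mean of both FaDu mock channels, the 2 FaDu ratios were 0.33 with the 3p and −0.32 with the 5p strand.

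DHCR7, which completes cholesterol from 7-dehydrocholesterol, was above mock on 7 of 8 arrays, up to 0.84 in FaDu cells with miR-99a-3p. PMVK, the phosphomevalonate kinase, was 0.76 on the same array and between −0.50 and 0.03 on the others. SQLE, the squalene epoxidase, was highest with si-FOXQ1-1 (0.61) and with miR-99a-3p in FaDu cells (0.55). HSD17B7, a ketosteroid reductase of the late pathway, was below mock on all 8 arrays, lowest in PC3 cells with miR-100-3p (−0.63). Its 4 probes did not give the same sign on every array. LSS, which cyclises squalene epoxide to lanosterol, was also lowest with miR-100-3p (−0.62), and EBP, the sterol isomerase, was lowest in PC3 cells with miR-99a-3p (−0.64).

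MVK, the mevalonate kinase, was 0.50 in FaDu cells with miR-99a-3p and was the lowest sterol enzyme in PC3 cells with miR-150-3p, at −0.28. MVD, which makes isopentenyl diphosphate, was the lowest with si-FOXQ1-2, at −0.30, and HSD17B7 in FaDu cells with miR-99a-3p, at −0.48. With si-FOXQ1-1 the lowest was LSS at −0.17. CYP51A1, the lanosterol demethylase, lay between −0.19 and 0.46. FDFT1 and NSDHL, which make squalene and remove methyl groups from lanosterol products, stayed within 2 spot errors on all 8 arrays. The same was true of ACACA among the fatty acid genes.

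Of the fatty acid genes, FASN had the highest ratio of the 29. FASN, the fatty acid synthase, had a probe signal (chr17:80036216-80036275, hg19) of 3939 in mock and 10827 in FaDu cells with miR-99a-3p, a log2 ratio of 1.46 (spot error 0.24), or 2.75-fold. The other FaDu array, with miR-99a-5p, gave 0.43, from 2312 to 3105. On the 4 PC3 arrays FASN lay between −0.34 with miR-150-3p (7404 to 5849) and 0.25 with miR-150-5p (6046 to 7169), and the siRNAs gave 0.15 and −0.08. FASN was therefore above mock in both FaDu pairs by 2 spot errors and within 2 spot errors elsewhere.

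The neighbours of FASN in the pathway differed from it and from each other. ACLY, which splits citrate to acetyl-CoA, was 0.95 in FaDu cells with miR-99a-3p (from 1169 to 2254) and between −0.32 and 0.34 on the other arrays. ACACA, the acetyl-CoA carboxylase, was 0.35 on that array and −0.39 at its lowest, with miR-150-3p. Its second probe, also above background in both channels, had the opposite sign on both arrays, −0.35 and 0.16. ACSS2, which makes acetyl-CoA from acetate, went the other way. Its probe (chr20:33515343-33515401, hg19) went from 1006 to 442 in FaDu cells with miR-99a-3p, a log2 ratio of −1.19 (spot error 0.23), and from 2003 to 3396 in PC3 cells with miR-150-3p, where the log2 ratio was 0.76 (spot error 0.22). The other ratios of ACSS2 were −0.55 with si-FOXQ1-2, −0.43 with miR-150-5p, −0.31 with miR-99a-5p, −0.27 with miR-100-3p, 0.16 with miR-99a-3p in PC3 cells and 0.20 with si-FOXQ1-1. The value past 2-fold was −0.90 with limma's background correction and loess, and −0.93 against the mean of both FaDu mock channels.

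ELOVL6 lengthens palmitate to stearate and was the dimmest case among the 6 genes past 2-fold. Its signal (chr4:110971171-110971230, hg19) went from 229 to 483 in FaDu cells with miR-99a-3p, a log2 ratio of 1.08 (spot error 0.24), and from 222 to 128 in PC3 cells with the same miRNA, where the log2 ratio was −0.79 (spot error 0.24). With miR-100-3p it went from 133 to 207, or 0.64, and was 0.34 with limma's correction. The FaDu ratio was 0.72 with limma's correction and 0.82 against both FaDu mock channels, so its place past 2-fold depends on these choices. A second ELOVL6 probe was not well above background in either channel on these 3 arrays. The other ratios ranged from −0.23 with miR-150-5p to 0.57 with si-FOXQ1-1, the latter from signals of 37.6 and 55.8 with a spot error of 0.38.

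The desaturases and LPIN1 stayed within 2-fold. SCD, which makes oleate, was 0.77 in PC3 cells with miR-99a-3p (from 1460 to 2488), 0.51 with miR-150-3p and between −0.07 and 0.17 elsewhere. FADS1 and FADS2, which desaturate polyunsaturated fatty acids, were both 0.44 in PC3 cells with miR-150-3p, and FADS1 was 0.55 in FaDu cells with miR-99a-3p. LPIN1, a phosphatidate phosphatase, was 0.45 with miR-150-3p on its brightest probe and below mock on the other 7 arrays, down to −0.30 with si-FOXQ1-1. A second LPIN1 probe, above background in both channels, gave 0.39 with miR-150-3p and 0.30 with si-FOXQ1-1. With miR-99a-3p it gave 0.34 in FaDu and 0.19 in PC3 cells, and it was below mock on the remaining arrays. FADS2 was lowest with miR-100-3p, at −0.28. With miR-150-3p, SCD, FADS1, FADS2, LPIN1 (brightest probe) and ACSS2 were thus higher by 2 spot errors. ACLY, FASN and ACACA (brightest probe) were at −0.32, −0.34 and −0.39.

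**Figure D2:**
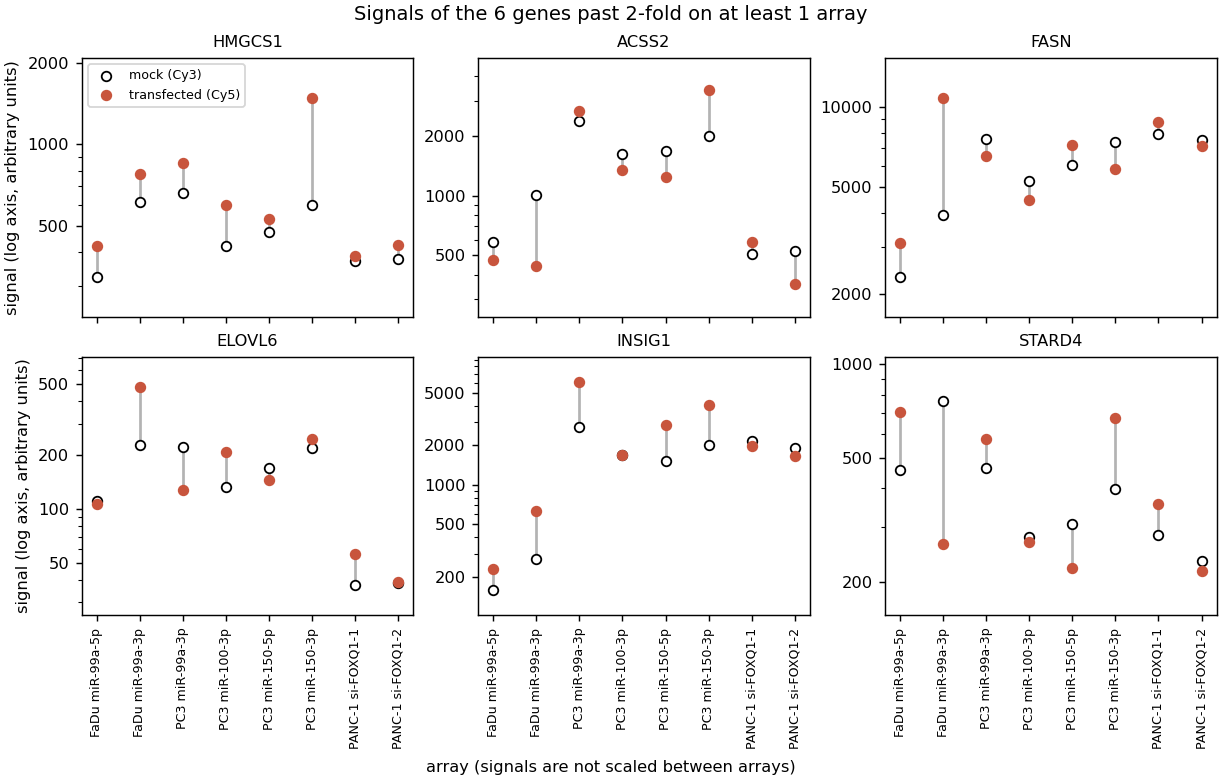
Signals of the 6 genes past 2-fold on at least 1 array, in mock cells (open circles, Cy3) and transfected cells (filled circles, Cy5), for each of the 8 arrays, on a log axis in arbitrary units. Grey lines join the channels of 1 array, and the longest are those of FASN and STARD4 in FaDu cells with miR-99a-3p, in opposite directions.

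The medians of the arms lay closer to 0 than the extreme members. The sterol enzymes had a median log2 ratio of 0.31 in FaDu cells with miR-99a-3p, 0.24 with si-FOXQ1-1 and 0.18 in PC3 cells with miR-150-3p. Their medians were 0.10 with miR-99a-5p, 0.07 with miR-150-5p, −0.07 with miR-99a-3p in PC3 cells, −0.17 with si-FOXQ1-2 and −0.28 with miR-100-3p. The median of all genes above background lay between −0.03 and 0.02 on the 8 arrays. With miR-100-3p, 12 of the 15 sterol enzymes were below mock, as were 10662 of the 20273 genes above background. Of the 15, 2 (LSS and HSD17B7, on their brightest probes) were lower by more than 2 spot errors, beside 7.66% of all genes. The dimmer LSS probe gave −0.30. The other HSD17B7 probes gave −0.26, −0.18 and −1.05, the last with Cy5 not well above background. With si-FOXQ1-2, 12 of 15 were again below mock, as were 10131 of the 19437 genes above background. By 2 spot errors 0 of the 15 were lower, beside 5.84% of all genes.

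The fatty acid genes had their highest medians with miR-150-3p in PC3 cells (0.44) and with miR-99a-3p in FaDu cells (0.35). The FaDu median was 0.10 with the mean or the median over the probes of each gene. The PC3 median was 0.39 with the median probe and 0.10 with the mean, which takes in an LPIN1 probe whose Cy5 was not well above background. Elsewhere the fatty acid medians lay between −0.18, in PC3 cells with miR-99a-3p, and 0.08, with si-FOXQ1-1. The 5 regulators did not form a block. On the FaDu array with miR-99a-3p they spanned −1.52 for STARD4 to 1.23 for INSIG1.

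**Figure D3:**
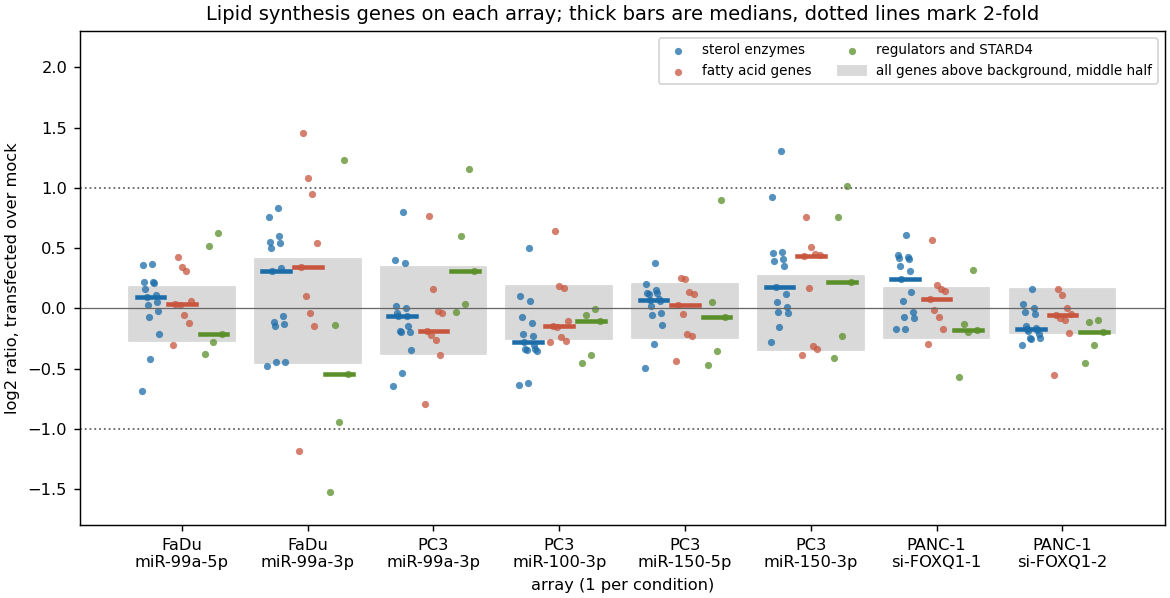
Log2 ratio of transfected over mock cells for each of the 29 genes, by array and arm (15 sterol enzymes, 9 fatty acid genes, 5 regulators). Thick bars are arm medians, grey boxes the interquartile range of all genes above background and dotted lines 2-fold. The sterol medians run from −0.28 with miR-100-3p to 0.31 with miR-99a-3p in FaDu cells.

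The miR-99a-3p strand was given to both PC3 and FaDu cells. In FaDu cells 18 of the 29 genes differed from mock by more than 2 spot errors, beside 44.1% of all genes, and in PC3 cells 7, beside 34.7%. INSIG1 had similar log2 ratios in the 2 lines, 1.23 and 1.15. FDPS, which makes farnesyl diphosphate, was 0.54 in FaDu and −0.54 in PC3 cells, and ELOVL6 and SREBF1 were also on opposite sides by 2 spot errors, as were 8.57% of all genes above background on both arrays. FASN, at 1.46 in FaDu cells, was −0.22 in PC3 cells, while SCD, at 0.77 in PC3 cells, was −0.04 in FaDu cells. With 1 array in each line, the difference between lines was not tested.

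In PC3 cells, miR-99a-3p and miR-100-3p, whose seeds differ by 1 base, were measured beside mock channels of 1 line, and whether these hold the same RNA is not given in the labels. INSIG1 was 1.15 with miR-99a-3p and 0.00 with miR-100-3p. TM7SF2 was 0.80 and −0.12, SCD 0.77 and 0.17, and ELOVL6 −0.79 and 0.64. With limma's correction ELOVL6 was −0.49 and 0.34. It was −0.60 and 0.26 when the control was averaged over all mock signals of PC3. With either choice the miR-100-3p value of ELOVL6 was under 2 spot errors (spot error 0.23). Averaging its probes gave −1.13 and 0.88, but the dimmer probe was not well above background on these arrays. SREBF1 was 0.60 and −0.39 on its brightest probe, but 0.07 and 0.16 on the other. FDPS, at −0.54 and −0.34, and IDI1, an isoprenoid isomerase at −0.35 on both arrays, were close.

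The strands of miR-150 were also compared in PC3 cells. INSIG1 was close with both, 0.90 with the 5p and 1.01 with the 3p strand. HMGCS1 was 0.15 and 1.31, ACSS2 −0.43 and 0.76, and STARD4 −0.47 and 0.76. FASN was 0.25 and −0.34. ACACA was 0.25 and −0.39 on its brightest probe and 0.27 and 0.16 on the other. The siRNAs against FOXQ1 gave small values for every member. The largest in size were SQLE at 0.61 with si-FOXQ1-1 and ACSS2 at −0.55 with si-FOXQ1-2. Beside these, SQLE was −0.05 with the second siRNA and ACSS2 0.20 with the first. DHCR7 and EBP were 0.43 and 0.45 with the first siRNA and 0.04 and −0.21 with the second.

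Before any transfection, the lines already differed in these genes, FaDu having the lowest levels of many enzymes. The mock channel of each array, as log2 signal less the log2 of its 75th percentile, was averaged over the 4 PC3, 2 FaDu and 2 PANC-1 arrays. Mock channels of 1 line differed by a median of 0.066 to 0.142 log2 units over genes, and those of different lines by 0.52 to 0.689. Within PC3, the mock channels of the miR-150-5p and miR-150-3p arrays differed by 0.0661 and those of the miR-99a-3p and miR-100-3p arrays by 0.0707, while the differences across these pairs were 0.138 to 0.142. Since arrays of 1 line may hold the same mock RNA, their SD is technical at least in part, and the lines were not tested against each other.

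With means at least 2-fold apart and no overlap between arrays, PC3 exceeded FaDu for 7 of 15 sterol enzymes and 5 of 9 fatty acid genes, and FaDu exceeded PC3 for 0 of either. Of all genes, by the same rule, 21.9% were higher in PC3 and 20.8% in FaDu. FADS2 differed most. Its mock signals were 358 and 657 in FaDu cells, 19658 to 31364 in PC3 cells, and its scaled level was 42.6-fold higher in PC3. TM7SF2 was 13-fold (8.47-fold with quantile scaling), PMVK 6.74-fold, LPIN1 4.53-fold and DHCR7 4.36-fold higher in PC3 cells. INSIG1 was 7.95-fold higher, with mock signals of 1528 to 2745 in PC3 cells and 159 and 271 in FaDu cells. SREBF1 and SREBF2 stood the other way, 2.27-fold and 2.31-fold higher in FaDu cells.

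PANC-1 mock cells differed from FaDu in more of the genes than from PC3. By the same rule PANC-1 exceeded FaDu for 15 of the 29 genes and was lower for 1, ELOVL6, beside 20.9% and 19.4% of all genes. FADS2 was 33.2-fold, INSIG1 11.4-fold, DHCR7 7.37-fold and LPIN1 7.1-fold higher in PANC-1. Between PC3 and PANC-1, 3 genes were at least 2-fold higher in PC3 (TM7SF2, ACSS2 and ELOVL6) and 2 in PANC-1 (IDI1 and SREBF1), beside 17.4% and 16.8% of all genes. IDI1 and SREBF1 were 2.01-fold and 2.00-fold higher in PANC-1, at the threshold. With quantile scaling in place of the percentile, TM7SF2 and ACSS2 alone were 2-fold apart between PC3 and PANC-1. ELOVL6, lower in PANC-1 than in PC3 by 3.48-fold and than in FaDu by 3.59-fold, was then lower by 1.81-fold and 1.88-fold.

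**Figure D4:**
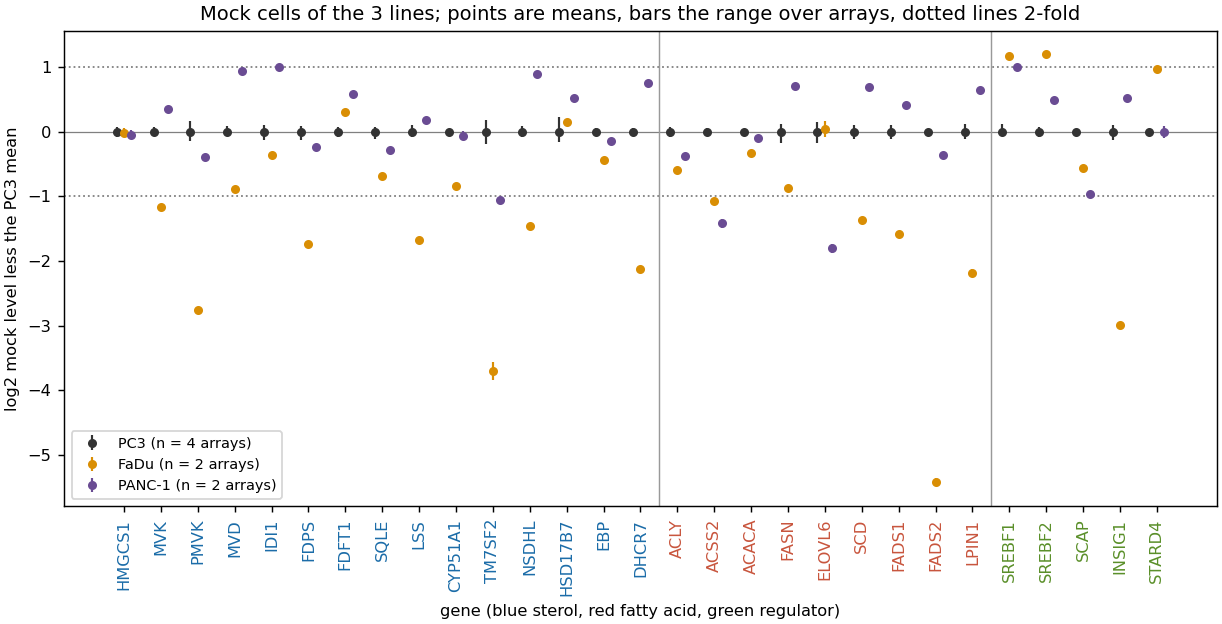
Scaled log2 mock level of each of the 29 genes in PC3 (4 arrays), FaDu (2 arrays) and PANC-1 cells (2 arrays), less the PC3 mean of the gene. Points are means, bars the range over arrays and dotted lines 2-fold, and FADS2, TM7SF2 and INSIG1 in FaDu cells lie farthest below PC3.

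What the promoters of these genes share was read from RefSeq sequences (GRCh38.p14), from 250 bases before to 50 bases after the start, which were matched for 26 of the 29. Motifs were searched as exact letters on both strands, and no motif holds the letters of another. The CCAAT box (CCAAT), the site of the NF-Y factor, was in 16 of 26 promoters, 61.5%, beside 36.1% of the promoters of genes above background on any array. It was in 10 of 13 sterol and 3 of 8 fatty acid promoters. The GC box (GGGCGG), the site of Sp1, was in 92.3% beside 64.3%. The E-box (CACGTG) was in 3 of 26 promoters, 11.5% beside 9.56%. The sterol regulatory element (TCACNCCAC), which SREBPs bind, was found in 1 promoter, that of SREBF2, and in 1.14% of the promoters of genes above background. That stretch is shown because, of the 26 members searched, only SREBF2 has these letters in this window. The promoters of FDFT1, SQLE and FASN were not available and were not searched. Its motif, in capitals, starts 133 bases before the start of the gene.
SREBF2 promoter (chr22:41832962-41832990, plus strand): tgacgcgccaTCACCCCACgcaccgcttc
A match of letters describes the sequence only.

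Beyond the 29, 8 more genes of the sterol and SREBP pathway and 19 of fatty acid and lipid assembly were followed. In the first list 2 passed 2-fold, 1 of 7 above background in FaDu cells with miR-99a-3p, beside 17.6% of all genes, and 1 of 8 in PC3 cells with miR-99a-3p, beside 11.6%. MBTPS2, the protease that releases SREBPs in the Golgi, went from 533 to 258 in FaDu cells with miR-99a-3p (−1.05). MSMO1, a methyl oxidase acting beside NSDHL, went from 168 to 65.4 in PC3 cells with miR-99a-3p (−1.36), while it was 0.96 with miR-150-3p. Neither passed 2-fold with limma's correction (−0.68 and −0.79) or against the mean of the line's mock channels (−0.65 and −0.73). The median of that list ran from −0.31 in FaDu cells with miR-99a-3p to 0.30 with si-FOXQ1-1.

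In the second list genes passed 2-fold on the 2 arrays with miR-99a-3p and on no other. In FaDu cells these were 5 of the 19 above background, beside the 17.6% of all genes. SCD5, a second stearoyl-CoA desaturase, went from 53.9 to 219 (2.02) and LPIN2, a second phosphatidate phosphatase, from 344 to 55.5 (−2.63). ELOVL7, an elongase, was at −1.57. DGAT2, which completes triglycerides, was not well above background in mock cells and at least 2.48-fold higher in transfected cells. MLXIPL, a glucose-responsive activator of lipid genes, was not well above background in transfected cells and at least 3.63-fold lower. With limma's correction LPIN2 (−1.47) and ELOVL7 (−1.06) stayed past 2-fold and SCD5 (0.97), DGAT2 (0.32) and MLXIPL (−0.72) did not. Against both FaDu mock channels LPIN2, ELOVL7 and SCD5 (1.05) stayed past it. In PC3 cells with miR-99a-3p, 2 of 18 passed, beside 11.6% of all genes, again SCD5 (1.16, from 240 to 537) and LPIN2 (−1.16, from 1272 to 570). SCD5 was 0.91 there with limma's correction and 0.88 against the PC3 mock channels. SCD5 and LPIN2 thus had 1 direction in both lines.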

How the data were processed

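The 8 arrays (Agilent, 2 colours, 1 slide) were scanned and processed by the authors with Feature Extraction 10.7.3.1. As deposited, intensities had been corrected for background and dye within the array and not scaled between arrays. The same software gave the deposited log10 ratios (Cy5 over Cy3), to which the series values were identical (largest difference 0). Ratios were multiplied to log2, flagged spots (81 to 178 of 60901 per array) were left out, and 58201 probes were reduced to 43317 genes by the brightest probe. Of the members, 6 had several probes. Background means all genes well above background in at least 1 channel. Where 1 channel was dim, the bound sets the bright signal against the higher of the dim probe's own signal and the lowest signal well above background on that array. Mock levels were log2 intensity less each array's 75th percentile.

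No test was run, as each condition has 1 array, and their number limits the precision. The members, the lists and the rule for naming genes (members past 2-fold, and the highest and lowest of each arm) were chosen with earlier results of these data known. Alternatives were limma 3.58.1 (R 4.3.3, normexp offset 50, loess), the series values, centring, the mean of a line's mock channels, other probes and filters, and thresholds of 1.5-fold and 4-fold. The limma step was tested on simulated data of 60901 probes, where 100% of 200 changed probes went the right way and the slope on the true ratio was 0.929. Python 3.11.15, pandas 2.3.3 and numpy 2.4.6 were used. Exon and UTR annotation was not used here.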

Additional observations from a re-analysis of the deposited data

Results flagged for a closer look

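With miR-99a-3p, 3 of the 29 genes lay on opposite sides of mock in PC3 and FaDu cells by more than 2 spot errors, beside 8.57% of all genes above background on both arrays. The 3 of 29 are near that share, so the count does not set these genes apart from the rest. FDPS had a log2 ratio of −0.54 in PC3 and 0.54 in FaDu cells. ELOVL6 had −0.79 in PC3 and 1.08 in FaDu cells, and −0.49 and 0.72 with limma's correction. SREBF1 had 0.60 in PC3 and −0.95 in FaDu cells, but its PC3 value was 0.33, under 2 spot errors, as the mean of both probes. Each line had 1 array, so the difference was not tested.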

How the results depend on the processing

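Of 792 single log2 ratios that another setting could change, 740 moved by less than their spot error and 52 by more. No ratio past 2-fold changed sign, but some fell under 2-fold. Arm medians moved by less than the median spot error of the arm in 211 cases and by more in 5. The 211 take in settings that could not move a median, such as the identical series values with 24 cases, so they do not measure stability. The 5 came from the mean over the probes of a gene (3 cases) and from the median probe (2 cases). The fatty acid median in FaDu cells with miR-99a-3p was 0.10 with the mean or the median probe, and in PC3 cells with miR-150-3p it was 0.10 with the mean of probes, where the regulator median was 0.00053 with either. Among members past 2-fold, limma gave 2 in FaDu cells with miR-99a-3p and 1 in PC3 cells with miR-150-3p. The mean of the mock channels gave 3 and 1 there, centring gave 1 with miR-150-3p, and the mean or median probe gave 2 in PC3 cells with miR-99a-3p. Past 1.5-fold there were 2 members in FaDu cells with miR-99a-5p and 10 with the 3p strand. In PC3 cells there were 1 and 5 with the 5p and 3p strands of miR-150, 6 with miR-99a-3p and 3 with miR-100-3p, and in PANC-1 cells 1 with si-FOXQ1-1. Past 4-fold there were 0 on every array. The share of all genes past 1.5-fold or 4-fold was not taken. These counts, and those of the other lipid genes below, therefore show only how the number depends on the threshold. Among the 47 other lipid genes, 7 in FaDu cells with miR-99a-3p and 6 in PC3 cells with miR-99a-3p had passed 2-fold, and limma gave 0 and 3 in FaDu cells (5p, then 3p strand) and 2 and 0 in PC3 cells with miR-99a-3p and miR-100-3p. The mean of the mock channels gave 0 and 3 in FaDu cells, and 0, 3 and 0 in PC3 cells with, in turn, miR-150-3p, miR-99a-3p and miR-100-3p. Both channels above background gave 0 with miR-99a-5p, and no filter gave 1 with miR-150-5p and 2 with si-FOXQ1-2. Past 1.5-fold there were 6 and 16 in FaDu cells, 2, 9, 13 and 5 in PC3 cells in the order above, and 3 with si-FOXQ1-1. Past 4-fold there were 2 in FaDu cells with miR-99a-3p and 0 elsewhere. In mock cells, 2 members were 2-fold apart between PC3 and PANC-1 with quantile scaling, against 5. The differences between lines in the mock levels of single members moved by more than the SD between arrays in 53 of 87 cases with quantile scaling and in 15 of 87 with the mean of probes. The causes were not tested. No paired analysis was possible because no condition has a second array. Signals near background limit ELOVL6 in PANC-1 cells, where its spot error was 0.38.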

Other observations

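Genes that handle oxysterols, cholesterol efflux and lipid storage were followed as a list of 10, of which 8 or 9 were above background on each array. With miR-99a-3p in PC3 cells, the list had a median log2 ratio of 0.65. In it 3 of 9 were at least 2-fold higher than mock and 0 lower, beside 4.23% of all genes higher and 7.39% lower. The list was chosen with earlier results of these data known, so this difference in shares is descriptive and cannot serve as a test. ABCA1, which exports cholesterol to apolipoproteins, went from 679 to 1430 (1.08). ABCG1, which exports it to lipoprotein particles, went from 369 to 986 (1.42), and MYLIP, a ubiquitin ligase of lipoprotein receptors, from 552 to 1282 (1.22). With limma's correction ABCA1 (0.83) and MYLIP (0.94) were under 2-fold, and against the PC3 mock channels MYLIP was (0.86). These are known targets of the oxysterol receptors, as are SREBF1 and SCD. On that array SREBF1 was 0.60 on its brightest probe and 0.07 on the other, and SCD was 0.77. Activity of these receptors was not tested. In FaDu cells with the same miRNA the values were −1.34 for ABCA1 (−0.84 with limma's correction, −0.82 against both FaDu mock channels), −0.72 for ABCG1, 0.45 for MYLIP, −0.95 for SREBF1 and −0.04 for SCD. With miR-99a-5p, FaDu cells had ABCG1 at least 2.79-fold lower, with Cy5 not well above background, and CH25H, the cholesterol 25-hydroxylase, at least 2.51-fold higher, with Cy3 not well above background. Neither was past 2-fold with limma's correction (−0.73 and 0.37) or against both FaDu mock channels (−0.62 and 0.41).

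Among 10 genes listed for fatty acid oxidation, PDK4, a kinase that turns off pyruvate dehydrogenase, was 1.55 in PC3 cells with miR-150-3p (from 121 to 354) and 1.44 with miR-100-3p (from 89.9 to 244). PDK4 was 1 of 9 above background past 2-fold on each of these arrays, beside 9.36% and 4.33% of all genes. With miR-100-3p it was under 2-fold with limma's correction (0.98) and against the PC3 mock channels (0.87), and with miR-150-3p against those channels (0.995). ACADM, which oxidises medium-chain fatty acids, was −1.41 with si-FOXQ1-2 (from 613 to 231) and −0.02 with si-FOXQ1-1. With si-FOXQ1-2 it was 1 of 8 above background past 2-fold, beside 3.7% of all genes. FOXQ1 itself was −1.29 in PC3 cells with miR-150-3p, from 328 to 134, and 0.89 with miR-99a-3p, from 172 to 319.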
